A study of Homo sapiens with 6 samples.

Results

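The data describe 10 genes whose proteins carry out recombination and fork remodelling at telomeres of cells that use alternative lengthening of telomeres (ALT). They were BLM, TOP3A, RMI1 and RMI2, which encode the BLM–TOP3A–RMI (BTR) complex, SLX4, FANCM, SMARCAL1, RAD52, RAD51AP1 and POLD3. They were chosen by name, each matched by its Ensembl identifier in the count table, which gave 10 genes of the 60664 listed. mRNA abundance was measured by polyA RNA-seq in U-2 OS, an osteosarcoma line that maintains telomeres by ALT, in 3 biological replicates transfected with a control siRNA (siCTRL) and 3 transfected with siRNA against SFPQ (siSFPQ), at a final concentration of 30 nM. SFPQ encodes a nuclear RNA-binding protein. All libraries come from 1 line, the labels give no time between transfection and harvest, and other siRNA sequences or cell lines were not analysed here.

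ALT copies telomeric DNA by homologous recombination in place of telomerase. Stalled or broken forks at telomeres are remodelled by translocases such as SMARCAL1 and FANCM, RAD52 and RAD51AP1 promote annealing and strand invasion, and POLD3, a subunit of DNA polymerase delta, supports the long repair synthesis known as break-induced replication. The joined telomeres are then either dissolved by the BTR complex, which favours telomere extension, or cut by nucleases held on the SLX4 scaffold, which ends the process without extension.

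Total counts ranged from 46142855 to 47119203 in siCTRL and from 43469321 to 45543610 in siSFPQ. CPM is a count scaled to the size of its library. For the floor of detection, taken as 3 counts, that size was the total, which gave between 0.0637 and 0.0690 CPM. All other CPM values used the total multiplied by the library's TMM factor, the scaling of the edgeR fit. These factors ranged from 0.971 to 0.990 in siCTRL and from 1.019 to 1.027 in siSFPQ. SFPQ itself had 22381, 23139 and 21811 normalized counts in siCTRL and 3238, 3780 and 3108 in siSFPQ, a log2 fold change of -2.73. TERT, which encodes the catalytic subunit of telomerase, had 1, 4 and 0 raw counts in siCTRL and 0 in each siSFPQ library, and was not tested. Summed over 6 genes of mesenchymal and osteoblast lineage, the libraries held 5966 to 6296 CPM in siCTRL and 5468 to 5490 in siSFPQ, against 0.809 to 0.920 and 0.791 to 1.17 CPM over 5 blood markers and 4.25 to 5.49 and 6.53 to 7.33 CPM over 3 endothelial markers. The 4 epithelial markers summed to 328 to 344 CPM in siCTRL and 727 to 796 CPM in siSFPQ, with KRT8 and KRT18, keratins of simple epithelia, higher by 1.11 and 1.36 on the log2 scale, and their part in the results below was not tested. In bulk RNA, fewer cells of a kind and less RNA per cell cannot be told apart.

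All 10 genes were expressed well above the floor, with 934 to 3073 normalized counts per library, that is, counts scaled to a common library size. In siSFPQ, 6 of them fell (TOP3A, RMI2, SLX4, FANCM, SMARCAL1 and RAD51AP1), RAD52 rose, and BLM, RMI1 and POLD3 did not pass the threshold of an adjusted p under 0.05 in the edgeR quasi-likelihood test. With libraries scaled by their totals alone in place of the TMM factors, the split was 2 higher (RAD52 and BLM) and 2 lower (RAD51AP1 and SLX4), and the edgeR adjusted p was 0.385 for TOP3A, 0.107 for RMI2, 0.192 for FANCM and 0.0602 for SMARCAL1. The changes were small. The absolute log2 fold change lay between 0.08 and 0.44, with standard errors of 0.045 to 0.064, so that a gene of this abundance passed with a change of well under 1.5 on the log2 scale, the size the study asked for, and 0 of the 10 reached that size. Among all 29022 genes tested 44.6% were called, 22.4% higher and 22.1% lower, and 10.3% were both called and past 1.5 on the log2 scale. Among the 7941 genes with a mean of at least 1000 normalized counts, a class that holds all 10 genes and was added after the data were seen, 70.9% were called, 31.8% higher and 39.1% lower, and 2.72% were called and past 1.5. Among the 4147 genes with a mean of 1000 to 3000 over all libraries, which also include all 10 and were added later still, 70.3% were called, 32.9% higher and 37.4% lower. RAD52 is in both classes only through its siSFPQ libraries, with a mean of 974 in siCTRL and 1188 in siSFPQ. The 7 of 10 called (70.0%) is therefore near the share among genes of like abundance, and their absolute changes stand beside a median absolute log2 fold change of 0.23 in that range. The median log2 fold change of the 10 genes was -0.13, beside 0.02 over all genes tested and -0.02 over genes with 1000 to 3000 normalized counts.

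The libraries of each group lay close together. The coefficient of variation within a group was between 0.951% and 7.81%. With the TMM factors, the siSFPQ libraries lay below every siCTRL library for 7 genes, above every one for RAD52, and overlapped them for BLM and TOP3A. Without overlap were 52.3% of all genes tested (26.9% higher, 25.4% lower) and 75.3% of those with at least 1000 normalized counts (34.0% higher, 41.3% lower). With libraries scaled by their totals alone, the groups of SLX4, RMI1 and POLD3 overlapped and those of BLM did not. The share of all genes without overlap under that scaling was not computed. Relative to the siCTRL mean of each gene, the median of the 10 genes was -0.13, -0.12 and -0.13 on the log2 scale in the 3 siSFPQ libraries, and 8 of the 10 genes were below their siCTRL mean in each.

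**Figure D1:**
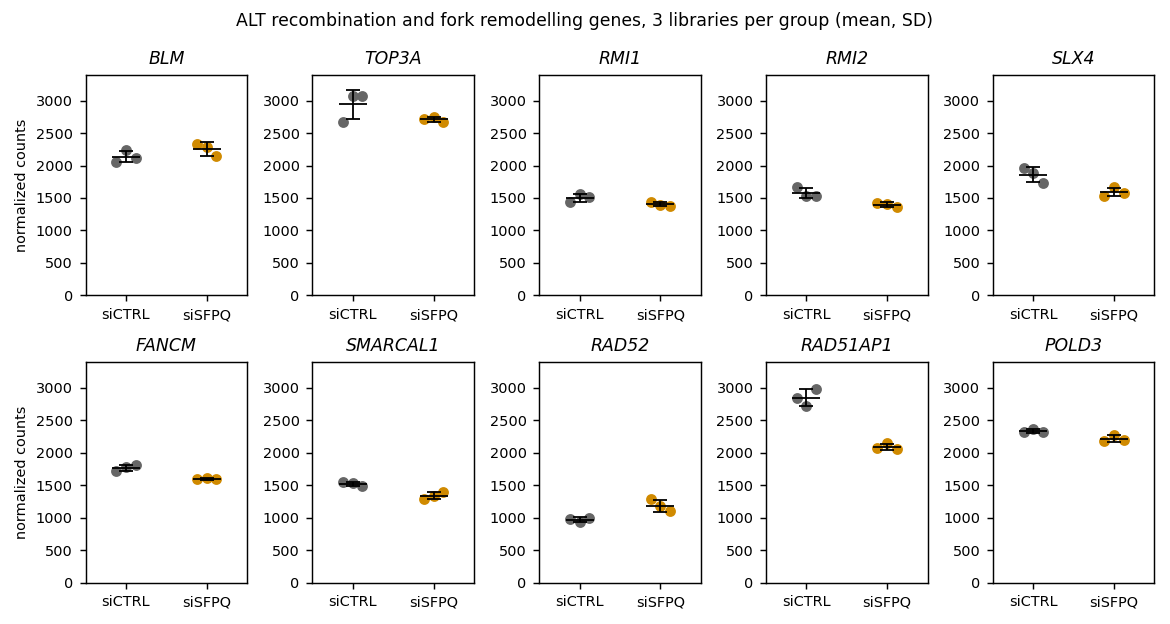
Normalized counts (vertical axis, from 0) of the 10 genes in each library, with points for the 3 siCTRL and 3 siSFPQ libraries and bars for the mean and SD. RAD51AP1 shows the widest gap between the groups, RAD52 is the gene whose siSFPQ points all lie above the siCTRL points, and the points of BLM and TOP3A overlap.

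Promoter sequence is shown for 4 genes that together cover the kinds of response: RAD51AP1 (fell), RAD52 (rose), BLM and RMI1 (not called). RefSeq (GRCh38.p14) gave 11 windows, each from 250 bases before to 50 bases after a start site, for 8 of the 10 genes, and none for RMI2 and POLD3. The motifs below were searched on both strands. E2F sites, read by factors that drive genes of DNA replication, were searched as TTTCCCGC, TTTCGCGC, TTTGCCGC or TTTGGCGC, the CHR element of genes expressed late in the cell cycle as TTTGAA or TTCGAA, and the CCAAT box as CCAAT. The fourth, GCGGGAA, overlaps the first E2F spelling and was added after the sequences had been seen. Capitals mark every match. The RAD52, BLM and RMI1 lines give the 250 bases before the start site, at chr12:949695-949944 (minus strand), chr15:90717096-90717345 (plus strand) and chr9:83980555-83980804 (plus strand). RAD52 and RMI1 have another start site each, whose windows are not printed because they hold no GCGGGAA: that of RAD52 held none of the motifs, and that of RMI1 held the CCAAT box 90 and 49 bases before the start. The RAD51AP1 line gives the last 30 bases before the start site, at chr12:4538860-4538889 (plus strand).

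RAD51AP1: tggttttggGCGGGAAttgaaaccgccgct

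RAD52: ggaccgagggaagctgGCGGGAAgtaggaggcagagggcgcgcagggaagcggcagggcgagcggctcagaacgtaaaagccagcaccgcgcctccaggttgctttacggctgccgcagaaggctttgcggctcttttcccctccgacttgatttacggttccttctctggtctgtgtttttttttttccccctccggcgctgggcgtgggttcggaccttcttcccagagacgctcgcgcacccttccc

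BLM: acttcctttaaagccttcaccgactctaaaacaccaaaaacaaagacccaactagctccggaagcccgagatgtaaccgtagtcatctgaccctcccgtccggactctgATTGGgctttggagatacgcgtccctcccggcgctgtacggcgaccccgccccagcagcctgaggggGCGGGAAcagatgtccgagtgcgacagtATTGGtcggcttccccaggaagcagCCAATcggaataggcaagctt

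RMI1: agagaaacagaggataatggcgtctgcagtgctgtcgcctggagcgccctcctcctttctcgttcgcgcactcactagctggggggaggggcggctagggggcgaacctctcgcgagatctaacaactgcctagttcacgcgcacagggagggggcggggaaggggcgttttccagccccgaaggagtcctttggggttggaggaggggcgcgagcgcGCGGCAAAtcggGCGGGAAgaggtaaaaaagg

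GCGGGAA lay 21 bases before the start of RAD51AP1 and 20 before that of RMI1, 74 before BLM, 116 before TOP3A and 234 before RAD52. It was thus present in windows of 5 genes, of which RAD51AP1 and TOP3A fell, RAD52 rose and BLM and RMI1 were not called. This motif, added after these sequences had been seen, was held by 5 of the 11 windows. It was held by 6.55% of all 35116 windows, and by 10.3% of the windows of protein-coding genes with at least 1000 normalized counts. The CCAAT box was in 5 of the 11 windows, those of BLM, FANCM, RAD51AP1, RMI1 and SMARCAL1. It was in 34.6% of all windows and in 34.7% of those of protein-coding genes with at least 1000 normalized counts. In BLM it stood 141, 46 and 21 bases before the start, and in RAD51AP1 70 bases before. The E2F spellings were met in 1 of the 11 windows, in RMI1, 32 bases before its start (3.31% of all windows and 5.23% of those of the abundant genes). The CHR element was met in 0 of the 11 windows (16.4% and 11.6%). The letters alone did not separate the genes by response.

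The BTR complex joins the BLM helicase to topoisomerase TOP3A, and RMI1 and RMI2 hold the parts together and stimulate dissolution. Of its 4 genes, TOP3A and RMI2 fell and BLM and RMI1 were not called. BLM (chromosome 15, 90717346 to 90816166) had 2061, 2235 and 2116 normalized counts in siCTRL and 2336, 2292 and 2140 in siSFPQ. The groups overlapped. The log2 fold change was 0.08 (SE 0.049, edgeR adjusted p = 0.209), with a 95% interval of -0.02 to 0.18. TOP3A (chromosome 17, 18271428 to 18315007) had 2675, 3073 and 3072 normalized counts in siCTRL and 2714, 2748 and 2672 in siSFPQ. The first siCTRL library lay among the siSFPQ libraries and the other two stood above them. Its fall of 0.12 on the log2 scale (SE 0.048, edgeR adjusted p = 0.0482) was at the edge of the threshold. It was lost when siCTRL replicate 2 or 3 or siSFPQ replicate 1 or 3 was left out (edgeR adjusted p = 0.214, 0.201, 0.162 and 0.170), and with DESeq2 (adjusted p = 0.0816).

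RMI1 (chromosome 9, 83980798 to 84004074) had 1439, 1564 and 1515 normalized counts in siCTRL and 1435, 1397 and 1379 in siSFPQ. All siSFPQ values were lower than all siCTRL values, the first siCTRL library by very little. The log2 fold change was -0.10 (SE 0.054, edgeR adjusted p = 0.130), with a 95% interval of -0.21 to 0.01. RMI2 (chromosome 16, 11249619 to 11381662) had 1664, 1535 and 1528 normalized counts in siCTRL and 1426, 1408 and 1364 in siSFPQ. The groups did not overlap, and RMI2 fell by 0.17 on the log2 scale (SE 0.054, edgeR adjusted p = 0.00957), a difference of -11.2%. Without siCTRL replicate 1, its highest library, the edgeR adjusted p was 0.0578, and without siSFPQ replicate 3, its lowest, 0.0720.

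Ratios between subunits within a library do not depend on how libraries are scaled to each other. BLM per TOP3A was 0.770, 0.727 and 0.689 in siCTRL and 0.861, 0.834 and 0.801 in siSFPQ. BLM per RMI1 was 1.43, 1.43 and 1.40 in siCTRL and 1.63, 1.64 and 1.55 in siSFPQ. BLM per RMI2 was 1.24, 1.46 and 1.38 in siCTRL and 1.64, 1.63 and 1.57 in siSFPQ. In each of these pairs all siSFPQ libraries stood above all siCTRL libraries, by 0.19, 0.18 and 0.25 on the log2 scale. These pairs share BLM and are not independent of each other. Of single genes with at least 1000 normalized counts, 75.3% had groups without overlap, and how often ratios of other gene pairs separate was not computed. The exact permutation test gave p = 0.1 for each, the smallest p that 3 against 3 libraries allow, and 0.2 adjusted over the 6 pairs. The ratios among TOP3A, RMI1 and RMI2 overlapped between the groups, with log2 differences of -0.01 (TOP3A per RMI1, exact permutation p = 0.9), 0.06 (TOP3A per RMI2, p = 1) and 0.07 (RMI1 per RMI2, p = 0.6).

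Among 5 related RecQ helicases and topoisomerase partners outside the complex, and TOP3B, the paralogue of TOP3A, 3 of 6 fell and 1 rose, with a median log2 fold change of -0.16. TDRD3, the partner of TOP3B, fell by 0.49 (SE 0.083, edgeR adjusted p = 7.47e-06), and RECQL5, a helicase that travels with RNA polymerase II, fell by 0.29 (SE 0.048, edgeR adjusted p = 4.1e-06). The rise was that of TOP3B, with under 1 CPM, most of whose exon length overlaps an antisense gene. The libraries were stranded, but the strand setting of the counting is not given in the sources used here, so whether reads of the antisense gene were counted is not known.

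SLX4, FANCM and SMARCAL1, which act on branched DNA, all fell. SLX4 (chromosome 16, 3581181 to 3611606), the scaffold for the structure-specific nucleases, had 1957, 1882 and 1730 normalized counts in siCTRL and 1532, 1663 and 1584 in siSFPQ. In these counts the lowest siCTRL library was above the highest siSFPQ library, but not with libraries scaled by their totals alone. SLX4 fell by 0.22 on the log2 scale (SE 0.054, edgeR adjusted p = 0.00101), a difference of -14.2%. It was called in all 13 alternative fits, with log2 fold changes of -0.27 to -0.16.

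FANCM (chromosome 14, 45135930 to 45200890), the translocase that limits replication stress at ALT telomeres and anchors the Fanconi anaemia core complex, had 1720, 1778 and 1808 normalized counts in siCTRL and 1593, 1618 and 1591 in siSFPQ. Its libraries were the tightest of the 10 genes in siSFPQ, and the groups did not overlap. FANCM fell by 0.14 (SE 0.050, edgeR adjusted p = 0.0189), a difference of -9.48%. The call was lost without siCTRL replicate 3 (edgeR adjusted p = 0.0599), siSFPQ replicate 1 (0.0861) or siSFPQ replicate 3 (0.0738). SMARCAL1 (chromosome 2, 216412383 to 216483053), an annealing helicase that reverses stalled forks, had 1550, 1534 and 1489 normalized counts in siCTRL and 1288, 1338 and 1393 in siSFPQ. The groups were separate. SMARCAL1 fell by 0.19 (SE 0.054, edgeR adjusted p = 0.0049), a difference of -12.1%, with an edgeR adjusted p of 0.0645 when siSFPQ replicate 1 was left out.

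The partners of SLX4 moved in both directions. Of 12 listed, 10 were tested, 5 rose and 3 fell, with a median log2 fold change of 0.11. MUS81, the catalytic subunit of a resolving nuclease, rose by 0.24 (SE 0.057, edgeR adjusted p = 0.000627), while its partner EME1 fell by 0.34 (SE 0.076, edgeR adjusted p = 0.00034). ERCC1 rose by 0.22 (SE 0.042, edgeR adjusted p = 3.5e-05), though its exons overlap those of an antisense gene, and its nuclease partner ERCC4 had a log2 fold change of 0.10 (edgeR adjusted p = 0.205). MSH3, a mismatch recognition protein that binds SLX4, fell by 0.49 (SE 0.063, edgeR adjusted p = 7.43e-08). SLX1A and SLX1B, near-identical copies that encode the SLX1 nuclease and overlap readthrough genes, had 0 counts in every library, so their expression cannot be read from this table.

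For FANCM, 6 of 15 partners and Fanconi core genes fell and 0 rose, by edgeR, with a median log2 fold change of -0.07. At DNA, FANCM acts together with FAAP24 and the histone-fold pair CENPS and CENPX, named here after their values were seen. FAAP24 fell by 0.46 (SE 0.094, edgeR adjusted p = 0.000132) and CENPX by 0.19 (SE 0.044, edgeR adjusted p = 0.000572). CENPS fell by 0.56 (SE 0.192, edgeR adjusted p = 0.0174) but shares 65.0% of its exon length with a readthrough gene, so its value is uncertain. The largest fall was that of FANCC, a core subunit, at 1.76 (SE 0.060, edgeR adjusted p = 1.69e-22), followed by FANCL, the ubiquitin ligase, at 0.71 (SE 0.061, edgeR adjusted p = 1.01e-11).

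Among 13 other fork remodelling genes, 2 rose (15.4%) and 6 fell (46.2%), with a median log2 fold change of -0.13. ZRANB3, an annealing helicase like SMARCAL1, had 494, 523 and 561 normalized counts in siCTRL and 248, 250 and 207 in siSFPQ, so that it fell by 1.16 (SE 0.099, edgeR adjusted p = 5.99e-12). PARPBP, an inhibitor of homologous recombination, fell by 0.38 (SE 0.066, edgeR adjusted p = 1.01e-05). SHPRH, a ubiquitin ligase with a translocase domain, rose by 0.25 (SE 0.056, edgeR adjusted p = 0.000381), and RFWD3, a ligase that acts on RPA, by 0.10 (SE 0.039, edgeR adjusted p = 0.0299). Of the subunits of RPA, the complex that recruits SMARCAL1, RPA1 fell by 0.13 (SE 0.039, edgeR adjusted p = 0.00814), and RPA2 and RPA3 were not called.

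RAD52 and RAD51AP1 moved in opposite directions. RAD51AP1 (chromosome 12, 4538798 to 4560047), which binds DNA and promotes strand invasion at ALT telomeres, had 2837, 2724 and 2982 normalized counts in siCTRL and 2081, 2146 and 2055 in siSFPQ. No siSFPQ library came near the siCTRL range. RAD51AP1 fell by 0.44 on the log2 scale (SE 0.046, edgeR adjusted p = 7.9e-10), a difference of -26.5%, the largest among the 10 genes. Of all genes tested, many with few counts, 48.9% had a larger absolute change. Among genes with a mean of 1000 to 3000 normalized counts, the quartiles of the log2 fold change were -0.26 and 0.20. RAD51AP1 was called in all 13 alternative fits, with log2 fold changes of -0.48 to -0.38.

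RAD52 (chromosome 12, 911736 to 990053, minus strand), which anneals single strands coated with RPA, had 988, 934 and 999 normalized counts in siCTRL and 1286, 1175 and 1102 in siSFPQ. Every siSFPQ library was above every siCTRL library. RAD52 rose by 0.29 (SE 0.064, edgeR adjusted p = 0.000367), a difference of 22%, and was called in all 13 alternative fits, with log2 fold changes of 0.24 to 0.35. A noncoding gene on the same strand, ENSG00000250132 (chromosome 12, 974133 to 991190), shares 233 exonic bases with RAD52, 5.17% of its exon length. It had 281, 279 and 248 raw counts in siCTRL and 370, 374 and 357 in siSFPQ, and rose by 0.44 (SE 0.10, edgeR adjusted p = 0.000425). How reads in the shared bases were assigned is not given in the sources used here, and their part in the RAD52 value was not tested. For any of the 10 genes, annotated overlap with another gene reached at most 8.61% of exon length, in BLM, where the antisense gene had 4 to 12 raw counts per library. SOCS1, which lies inside the span of RMI2 on the opposite strand and fell by 1.17 (SE 0.118, edgeR adjusted p = 3.41e-10), shares 0 exonic bases with it. LIPT2-AS1, on the strand of POLD3, shares 2.24% of the POLD3 exon length and had a log2 fold change of -0.40 (edgeR adjusted p = 0.0698).

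POLD3 (chromosome 11, 74493851 to 74669117) had 2321, 2374 and 2325 normalized counts in siCTRL and 2188, 2274 and 2196 in siSFPQ. The groups did not overlap, but the gap was narrow. The log2 fold change was -0.08 (SE 0.045, edgeR adjusted p = 0.181), with a 95% interval of -0.17 to 0.02, and it was called in 0 of the 13 alternative fits. Of the other subunits of polymerase delta, POLD1, the catalytic one, fell by 0.30 (SE 0.041, edgeR adjusted p = 2.05e-07) and POLD2 rose by 0.16 (SE 0.037, edgeR adjusted p = 0.000582), while POLD4 had a log2 fold change of 0.34 (edgeR adjusted p = 0.0942).

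**Figure D2:**
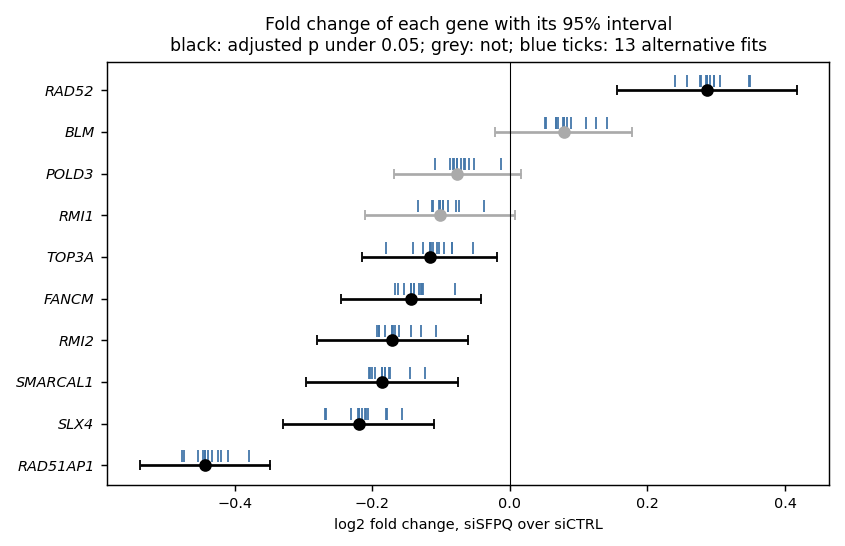
Log2 fold change of siSFPQ over siCTRL (horizontal axis) of the 10 genes with its 95% interval, black where the adjusted p was under 0.05 and grey where not, with 1 blue tick for each of the 13 alternative fits. RAD52 and BLM lie on the side of higher values and the other 8 genes on the side of lower values, and the ticks of no gene cross 0.

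Across 17 other strand exchange genes, 3 rose (17.6%) and 7 fell (41.2%), with a median log2 fold change of -0.17. RAD54B, counted as lower, shares 66.0% of its exon length with FSBP on the same strand, which had a log2 fold change of 1.39, so its value is uncertain. RAD54L, the motor protein of strand invasion, fell by 0.73 (SE 0.069, edgeR adjusted p = 6.1e-11), and RAD51B, which acts in strand exchange, by 2.09 (SE 0.098, edgeR adjusted p = 1.08e-18). RAD51C, a partner of RAD51B, rose by 0.42 (SE 0.043, edgeR adjusted p = 3.99e-10), and BRCA1, which promotes homologous recombination, by 0.17 (SE 0.041, edgeR adjusted p = 0.000603). USP1 and WDR48, which form a deubiquitinase in which WDR48 contacts RAD51AP1, parted: USP1 fell by 0.43 (SE 0.039, edgeR adjusted p = 3.23e-11) and WDR48 rose by 0.12 (SE 0.043, edgeR adjusted p = 0.0225).

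Of 21 genes of polymerase delta, its clamp and break-induced replication, 4 rose (19.0%) and 10 fell (47.6%), with a median of -0.11. ATAD5, which unloads the clamp, fell by 0.51 (SE 0.052, edgeR adjusted p = 5.31e-10), RFC1, the large subunit of the clamp loader, by 0.38 (SE 0.038, edgeR adjusted p = 2.87e-10), and PCNA, the clamp itself, by 0.11 (SE 0.039, edgeR adjusted p = 0.0149). The translesion polymerases REV1 and POLH rose by 0.22 (SE 0.046, edgeR adjusted p = 0.000135) and 0.16 (SE 0.044, edgeR adjusted p = 0.00233).

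Of 24 further ALT and telomere genes, 23 were tested, 3 rose and 11 fell, with a median of -0.14. NSMCE2, the SUMO ligase of the SMC5/6 complex that brings telomeres to PML bodies, had 2735, 2812 and 2820 normalized counts in siCTRL and 823, 793 and 816 in siSFPQ and fell by 1.78 (SE 0.051, edgeR adjusted p = 1.63e-24), and NSMCE1 of the same complex by 1.35 (SE 0.084, edgeR adjusted p = 2.05e-15). ACD, a shelterin subunit, rose by 0.29 (SE 0.057, edgeR adjusted p = 6.92e-05) and DAXX, a chaperone of histone H3.3, by 0.24 (SE 0.042, edgeR adjusted p = 1.79e-05). ATRX, the remodeller whose loss marks many ALT lines, had 14572, 15256 and 15392 normalized counts in siCTRL and 9967, 10733 and 10200 in siSFPQ, and fell by 0.55 (SE 0.038, edgeR adjusted p = 3.43e-14). The study describes the gene as epigenetically silenced in this line, and the difference between that statement and these counts was not tested. Counts over a whole gene do not show whether it encodes a functional protein.

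In all, 104 of the 107 genes in these 7 lists were tested, of which 18 rose (17.3%), 45 fell (43.3%) and 41 were not called, with a median log2 fold change of -0.11. Beside these stand 22.4% higher and 22.1% lower over all genes tested, and 31.8% and 39.1% over genes with at least 1000 normalized counts. The median of -0.13 over the 10 genes was thus close to that of their partners. Among them, 6 had a log2 fold change under -1, beside 0 of the 10 genes. The tallies include further genes that share exons with another gene, such as RECQL (41.5% of its exon length), XRCC3 (76.7%) and RAD50 (76.9%). How reads in the shared exons were assigned is not known.

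Cell cycle markers are given because several of the 10 genes, and many of their partners, are expressed most in S and G2 phase. The phase of the cells was not measured in these libraries. Of 38 S phase markers, a list that includes POLD3, 28 fell and 0 rose by edgeR (median log2 fold change -0.21), and their summed level went from between 4698 and 4844 CPM in siCTRL to between 3777 and 3875 CPM in siSFPQ. Of 51 G2/M markers 41 fell and 2 rose, with a median of -0.22 and sums of 11131 to 11489 CPM in siCTRL and 9600 to 9825 CPM in siSFPQ. The share that fell was 73.7% of the S phase and 80.4% of the G2/M markers. Over all genes tested 22.1% fell and 22.4% rose, and over genes with at least 1000 normalized counts 39.1% and 31.8%. POLA1, the catalytic subunit of polymerase alpha, fell by 1.85 (SE 0.054, edgeR adjusted p = 2.45e-24) and RRM2, a subunit of ribonucleotide reductase, by 1.09 (SE 0.037, edgeR adjusted p = 1.39e-22). Among the G2/M markers, PSRC1 and CDC25C, which act in spindle assembly and mitotic entry, fell by 0.50 (SE 0.045, edgeR adjusted p = 2.25e-11) and 0.49 (SE 0.059, edgeR adjusted p = 1.6e-08), and NEK2, a centrosomal kinase, and RANGAP1, a regulator of Ran, rose by 0.28 (SE 0.041, edgeR adjusted p = 6.83e-07) and 0.27 (SE 0.037, edgeR adjusted p = 2.72e-07). The part of these markers in the values of the 10 genes was not tested.

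The 10 genes span 21.3 to 175 kb of the genome, and none is longer than 200 kb. Among protein-coding genes tested, the share that fell and the median log2 fold change depended on span. It was 19.0% lower and 32.5% higher (median 0.09) up to 20 kb, 25.3% and 32.2% (0.05) from 20 to 50 kb, 33.9% and 28.6% (-0.02) from 50 to 100 kb, 48.3% and 18.0% (-0.18) from 100 to 200 kb, and 68.1% and 9.74% (-0.79) over 200 kb. RAD51AP1, RMI1, SLX4 and TOP3A lie in the 20 to 50 kb class, FANCM, SMARCAL1, RAD52 and BLM in the 50 to 100 kb class, and RMI2 and POLD3 in the 100 to 200 kb class. RMI2 and POLD3 had log2 fold changes of -0.17 and -0.08, near or above the median of their class, and the 4 shortest genes all had values below the median of theirs. Of the 8 genes in the 7 lists that span over 200 kb, 7 fell and 0 rose, with a median log2 fold change of -0.86. They include RAD51B, FANCC, NSMCE2 and ZRANB3, the genes with 4 of the 6 values under -1. The 96 genes of 200 kb or less that were tested had a median of -0.08, with 38 lower and 18 higher. Of the cell cycle markers named above, POLA1, which fell by 1.85, spans 303 kb and so lies in the class over 200 kb.

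Levels can be compared between genes only per length. Expressed as counts per kilobase of the Ensembl canonical transcript in a library scaled to CPM, RAD51AP1 had the highest level of the 10 genes in siCTRL (29.5 ± 1.34, SD, n = 3), followed by RMI2 (24.1 ± 1.17) and POLD3 (13.5 ± 0.169). SMARCAL1 (10.4 ± 0.216), RMI1 (9.98 ± 0.418), TOP3A (9.74 ± 0.761) and BLM (8.92 ± 0.371) followed, each overlapping the next in its library values. RAD52 stood at 7.04 ± 0.251, and SLX4 (5.55 ± 0.346) and FANCM (5.42 ± 0.136) were the lowest and overlapped. In siSFPQ the level of RAD51AP1 was 21.7 ± 0.486 and overlapped that of RMI2 (21.4 ± 0.490), and RAD52, at 8.59 ± 0.671, overlapped TOP3A (8.98 ± 0.126). The order depends on the length used: with the union of all annotated exons the siCTRL level of RMI2 was 9.54, that of SMARCAL1 2.76 and that of FANCM 2.03, beside 24.3 for RAD51AP1, which kept the first place.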

How the data were processed

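RNA-seq libraries of 3 siCTRL and 3 siSFPQ samples were grouped by their labels. The authors checked reads with FastQC, aligned them with STAR 2.7.9a to GRCh38 and deposited raw counts per Ensembl gene. Libraries were made with a stranded TruSeq mRNA kit. The strand setting of the counting is not given in the sources used here. The 10 genes and the lists were chosen with earlier results of these data known.

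Genes with at least 10 counts in total (29022) were tested with edgeR 4.0.16 (R 4.3.3), quasi-likelihood, TMM scaling, no covariate, and Benjamini-Hochberg adjustment over all of them. Fold changes are log2, siSFPQ over siCTRL, and intervals are 95%. Gene coordinates, spans and overlaps are those of GENCODE v44 (GRCh38), which held 60463 of the 60664 identifiers. Ratios within libraries were compared by two-sided exact permutation. Alternatives were another count filter or none, other scaling, DESeq2 1.42.0, a replicate block, protein-coding genes alone and each library left out. The floor of 3 counts is a fixed limit of detection and entered no test.

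Named with values are the 10 genes, SFPQ, ATRX and TERT, genes that overlap one of the 10 where their counts bear on it, and in each pathway and cell cycle list the largest 2 rises and 2 falls among called genes of at least 1 CPM whose groups did not overlap. Direct partners of the 10 genes outside that rule (TOP3B, ERCC4, SLX1A, SLX1B, FAAP24, CENPS, CENPX, RPA1 to RPA3, USP1, WDR48, POLD1, POLD2, POLD4 and PCNA) were added after their values were seen. KRT8 and KRT18 were added likewise. The authors' own comparison was not used.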

Additional observations from a re-analysis of the deposited data

How the results depend on the processing

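Of the 10 genes, RAD51AP1, RAD52 and SLX4 were called in all 13 alternative fits, SMARCAL1 in 11, RMI2 in 10, FANCM in 9, TOP3A in 7, BLM in 1, and RMI1 and POLD3 in 0, and no gene changed direction in any. Scaling by library size alone moved the median log2 fold change of protein-coding genes to 0.06 and gave 2 of the 10 higher (RAD52 and BLM, BLM at 0.14 with an edgeR adjusted p of 0.0153) and 2 lower (RAD51AP1 and SLX4), with 29 list genes higher. DESeq2 called 5 of the 10 lower. Leaving out 1 library in turn left 3 to 6 lower, with 3 without siSFPQ replicate 1 and 3 without siSFPQ replicate 3. With the replicate number as a block, 1 was higher and 6 lower, as without it. The deviations of same-numbered libraries correlated by 0.0019, 0.0121 and 0.0153, too little to pair them, though each library correlated best with its own number. Asking for a log2 fold change over 1.5 left 0 higher and 0 lower of the 10 genes, and 1609 higher and 1384 lower of all genes. Genes with at least 1000 normalized counts held 2522 higher and 3108 lower, and those with 1000 to 3000 held 1366 and 1549. The log2 differences of the 3 ratios with BLM lay between 0.15 and 0.30 when any 1 library was left out, while those among TOP3A, RMI1 and RMI2 lay between -0.05 and 0.12 and each changed sign without at least 1 library. A pseudocount of 10 moved none beyond its spread. The 95% intervals of BLM, RMI1 and POLD3 reached 0.18, -0.21 and -0.17 on the log2 scale, so these data leave changes up to those sizes possible.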
